A study of Mus musculus with 6 samples.

Results

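The muscle miRNAs of mouse Achilles tendon are described here from 9 loci, Mir1a-1, Mir1a-2, Mir133a-1, Mir133a-2, Mir133b, Mir206, Mir208b, Mir499 and Mir486, which were picked by name from the 2265 features of the small RNA-seq count table. Loci that give the same mature miRNA were treated as 1 measurement, so the 9 loci gave 7 products: miR-1a, miR-133a, miR-206, miR-133b, miR-208b, miR-499 and miR-486. Control mice had both Dicer alleles floxed and no Cre (Dicer f/f). ScxHt mice carried the ScxCre knock-in on 1 Scx allele with intact Dicer (ScxCre/+ Knock In:Dicer +/+), and Dicer cKO mice carried the same knock-in with both Dicer alleles floxed (ScxCre/+ Knock In:Dicer f/f). The knock-in inactivates the Scx allele that carries it, so ScxHt and Dicer cKO share this loss and Control does not. Cre is driven by the Scx promoter of tendon and ligament cells, and the study raises inefficient, mosaic recombination as a possibility. All tendons were taken at 4 weeks of age, and each genotype had 1 small RNA-seq and 1 RNA-seq library, so no spread between mice could be measured and no test between genotypes was made.

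Most miRNAs are cut from hairpin precursors by DROSHA and then DICER. They repress mRNAs that match their seed, which is bases 2 to 8 of the mature strand. MiR-1a and miR-133a are made from shared primary transcripts in heart and skeletal muscle, where miR-1a is known to favour differentiation of muscle cells and miR-133a to restrain it. MiR-206 and miR-133b form a similar pair in skeletal muscle, miR-208b and miR-499 come from introns of the slow myosin genes Myh7 and Myh7b, and miR-486 comes from an intron of Ank1 and is made in muscle and in red blood cell precursors.

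The mature strands below show what the family shares and what separates its members, and they are shown because reads of close relatives can be mistaken for each other. They are RefSeq sequences on GRCm38.p6, in which 5 of the 9 loci had a mature entry, and capitals mark the seed. The counts are per hairpin and do not say which strand was read.
miR-206-3p, chr1:20679055-20679076 (+): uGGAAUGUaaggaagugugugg
miR-133b-3p, chr1:20682834-20682855 (+): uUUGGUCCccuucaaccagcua
miR-208b-3p, chr14:54975710-54975731 (-): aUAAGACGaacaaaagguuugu
miR-499-5p, chr2:155622893-155622913 (+): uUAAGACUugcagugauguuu
miR-208a-3p, chr14:54949072-54949093 (-): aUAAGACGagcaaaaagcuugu

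The cluster partners miR-206 and miR-133b had different seeds, identical at 1 of 7 positions. MiR-208b and miR-499 lie on different chromosomes and shared 6 of 7 seed positions, with the substitution G8U counted from the 5′ end of miR-208b. MiR-208a, the cardiac relative of miR-208b from an intron of Myh6, had the same seed and differed from miR-208b at 3 of 22 positions (A10G, G16A and U18C). Mir208a was at 0 reads in Control, 1 in ScxHt and 2 in Dicer cKO, against 256, 137 and 344 at Mir208b, so nearly all reads of the pair were assigned to the locus in Myh7. On the 5p strand Mir1a-1 and Mir206 were alike, with 20 of 23 positions identical. The substitutions were A5G, G17C and C19U, counted from the 5′ end of miR-1a-1-5p, and A5G lies in the 5p seed. The 3p strand of miR-1a had no entry, so the 3p seeds of miR-1a and miR-206 were not compared.
miR-1a-1-5p, chr2:180389057-180389079 (+): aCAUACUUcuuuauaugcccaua
miR-206-5p, chr1:20679017-20679039 (+): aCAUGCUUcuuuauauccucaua

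In the GENCODE vM21 annotation of GRCm38, the 9 loci form 3 clusters and 3 single loci. Mir1a-1 (chromosome 2, 180389048 to 180389124) and Mir133a-2 (chromosome 2, 180398379 to 180398482) are 9254 bases apart and overlap no annotated gene. Mir1a-2 (chromosome 18, 10785481 to 10785552) and Mir133a-1 (chromosome 18, 10782909 to 10782976) are 2504 bases apart, in introns of the noncoding host Mir133a-1hg and, on the opposite strand, of Mib1. Mir206 (chromosome 1, 20679010 to 20679082) and Mir133b (chromosome 1, 20682769 to 20682887) are 3686 bases apart and overlap exons of the noncoding gene Gm28653. Mir208b lies in an intron of Myh7 (chromosome 14, 54975700 to 54975776), Mir499 in an intron of Myh7b (chromosome 2, 155622880 to 155622958) and Mir486 in an intron of Ank1 (chromosome 8, 23142555 to 23142682), each on the strand of its host.

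Twin loci could not be told apart. Mir1a-1 and Mir1a-2 had 174274 and 174314 reads in Control, 98934 and 98936 in ScxHt, and 266160 and 266189 in Dicer cKO. Mir133a-2 and Mir133a-1 differed by 3, 5 and 16 reads in the same libraries. The counts therefore say how much miR-1a and miR-133a was present and not which of the chromosome 2 and chromosome 18 clusters made it. Each product was read from its locus with the most reads, which was Mir1a-2 for miR-1a and Mir133a-1 for miR-133a. Mir486 had a twin outside the 9 loci, Mir3107, which lies within it on the opposite strand and had 13339, 7125 and 9950 reads against 13513, 7237 and 10076 at Mir486. Mir1b, on the strand opposite to Mir1a-2, had 4, 0 and 2 reads.

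Small RNA-seq counts added up to 8435829 to 10986541 per library. The 7 products, each counted once, held 4.71% of all counts in Control (95% Wilson interval 4.70 to 4.73), 3.08% in ScxHt (3.07 to 3.09) and 8.48% in Dicer cKO (8.46 to 8.50), although the totals count the reads of twin loci at each locus. These and all later intervals describe counting error and nothing else. They treat every read as an independent draw, although reads are copies made by PCR, so they may be too narrow even for that. MiR-206 and miR-1a together supplied 93.7%, 90% and 94.3% of those reads. In whole tissue, fewer muscle cells and less of an miRNA per cell cannot be told apart. The labelled tissue was checked on RNA-seq, in which the 6 tendon markers Tnmd, Scx, Mkx, Thbs4, Fmod and Col1a1 all had reads in every library. Together they held 87507, 71123 and 49228 CPM (counts scaled to a common library total) in Control, ScxHt and Dicer cKO. Col1a1 alone held 77647, 58721 and 43997 CPM, so the sum mostly follows that gene. A list of 20 skeletal muscle genes, called the fast muscle list, held 64757, 37342 and 112785 CPM in the same tendons. Some of its members, among them Ttn, Neb, Acta1, Ryr1 and Des, are not limited to fast fibres. Ttn alone held 42399, 20867 and 70994 CPM. No gene of the list was at 0, so RNA of skeletal muscle was present in all 3. Dicer1, the gene targeted in Dicer cKO, had 1919 RNA-seq reads in Control, 2025 in ScxHt and 1621 in Dicer cKO, a Dicer cKO/Control ratio of 0.877 (0.821 to 0.938). These reads were counted over the whole gene, so they check the deletion only in part.

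The levels of the products spanned 3 tiers that kept their order in all 3 libraries. MiR-206 was highest, with 28300 CPM in Control, 15968 in ScxHt and 48417 in Dicer cKO, and ranked 15, 17 and 5 among all features. MiR-1a followed at 15866, 11725 and 31555 CPM. Both were lowest in ScxHt and highest in Dicer cKO.

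MiR-133a stood at 1677 CPM in Control, 2177 in ScxHt and 3511 in Dicer cKO, so that Control and not ScxHt was lowest for it. MiR-486 stood at 1230, 857.7 and 1194 CPM, nearly level between Control and Dicer cKO. The lowest tier held miR-133b at 26.2, 28.8 and 42.4, miR-208b at 23.3, 16.2 and 40.8, and miR-499 at 6.64, 4.98 and 12.2 CPM. Most neighbours in this order were separated by their counting intervals. The exceptions were miR-133b and miR-208b in Control and Dicer cKO, whose intervals overlapped. A small RNA read covers a whole mature miRNA, so no length scaling was applied. On the authors' RPKM scale, which divides by hairpin length, miR-208b came before miR-133b in Control (302.6 against 220.3) and Dicer cKO (529.6 against 356.6) and the rest of the order was the same.

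**Figure D1:**
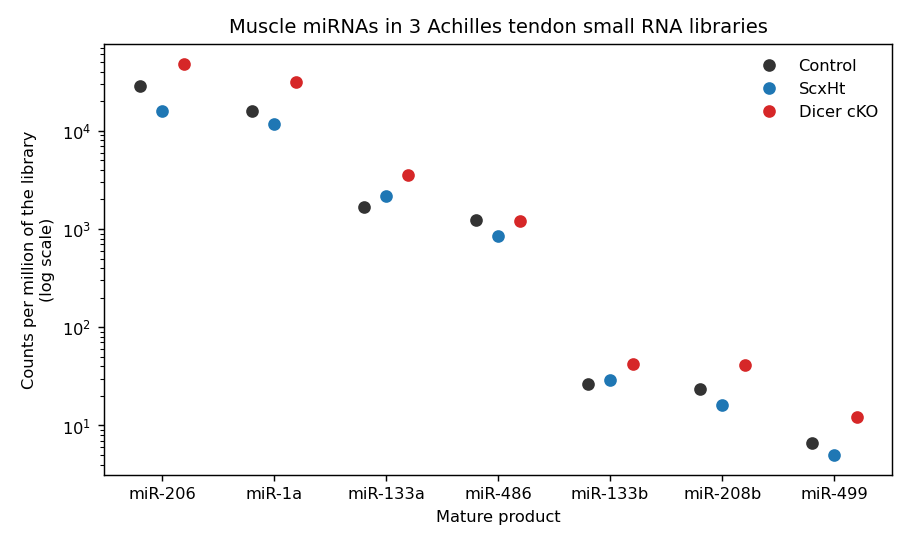
Level in CPM of the library total (log scale) of the 7 mature products in the Control, ScxHt and Dicer cKO small RNA libraries, 1 point per library. Dicer cKO is the highest point for every product except miR-486, and ScxHt is the lowest for every product except miR-133a and miR-133b.

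Between Dicer cKO and Control, the heart and skeletal muscle pair was the part of the family that stood highest. MiR-133a had 29615 reads in Dicer cKO and 18421 in Control, a ratio of 1.84 (95% exact counting interval 1.81 to 1.88) after the counts were divided by DESeq2 size factors. MiR-1a, with 266189 and 174314 reads, had a ratio of 1.75 (1.74 to 1.76). Both passed the study's limit for a higher feature, a log2 ratio of 0.74. The study describes fold changes with shrinkage and the ratios here have none, so calls near a limit could differ.

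The skeletal muscle pair stayed short of that limit. MiR-206 had 408434 and 310922 reads and a ratio of 1.51 (1.5 to 1.51), and miR-133b had 358 and 288 reads and a ratio of 1.42 (lower bound 1.22). The myosin intron miRNAs lay between the pairs, miR-499 with 103 and 73 reads at 1.62 (1.19 to 2.21) and miR-208b with 344 and 256 reads at 1.54 (1.31 to 1.82). At these depths neither could be separated from the ratio of miR-206 or of miR-1a. MiR-486 was the exception, at 0.855 (0.833 to 0.877) with 10076 reads in Dicer cKO and 13513 in Control, although scaling by total counts without the member loci put it at 1.03.

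Of the 7 products, 2 were above the upper limit and none was below 0.60, where the study calls a feature lower. Among the 334 features with a mean normalized count (baseMean) above 15, 8.38% were above the upper limit and 4.19% below the lower. The interval lay above 1 for 6 of the 7 products and for 31.1% of all features, and below 1 for 1 product and for 31.7%. Intervals narrow with more reads, and miR-206 and miR-1a were among the most read features. Such shares, here and below, therefore do not compare features of like depth. The median log2 ratio was 0.62 over the products and -0.02 over all features. How many products counted as higher depended on the scaling, from 2 with size factors and 3 with edgeR's TMM to 5 with total counts and 6 with total counts without the member loci.

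The ScxHt library differed from Control in another way, because the 2 members of each cluster parted. MiR-206 was lowest of the 7, with 134734 reads in ScxHt and 310922 in Control and a ratio of 0.488 (0.485 to 0.491). MiR-1a had 98936 and 174314 reads and a ratio of 0.639 (0.634 to 0.644). Their cluster partners did not share this. MiR-133a had 18367 and 18421 reads, which after scaling gave 1.12 (1.1 to 1.15), and miR-133b had 243 and 288 reads and a ratio of 0.951 (0.798 to 1.13), or 1.1 when scaled by total counts.

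MiR-208b at 0.603 (0.486 to 0.745) and miR-499 at 0.648 (0.433 to 0.96) stood with miR-1a, and so did miR-486 at 0.603 (0.586 to 0.621). Of the 7 products, 1 was below 0.60 and none above the upper limit, beside 6.93% and 3.01% of 332 features. The interval lay below 1 for 5 products and above 1 for 1, and for 32.8% and 24.4% of all features. The median log2 ratio was -0.65 over the products and -0.02 over all features. MiR-208b and miR-486 both lay within 0.01 of the 0.60 limit, so the count of 1 rests on which side of it they fell.

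Dicer cKO and ScxHt are the 2 genotypes that share the ScxCre allele, and between them all 7 products were higher in Dicer cKO. MiR-206 had a ratio of 3.03 (3.01 to 3.05), and only 2 of 322 features were higher. MiR-1a had one of 2.69 (2.67 to 2.71), miR-208b 2.51 (2.05 to 3.08) and miR-499 2.45 (1.7 to 3.6). MiR-133a at 1.61 (1.58 to 1.64), miR-133b at 1.47 (1.25 to 1.74) and miR-486 at 1.39 (1.35 to 1.44) did not pass the upper limit, with intervals above 1.

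In this comparison 4 of the 7 products were above the upper limit, beside 11.2% of all features, and none was below 0.60, beside 2.17%. The interval lay above 1 for all 7 and for 25.8% of all features, and below 1 for none of the 7 and for 33.9%. The median log2 ratio was 1.29, and -0.01 over all features. The 3 comparisons share libraries, so the values of this one follow from those of the other 2 and are no separate evidence. Scaling by total counts in place of size factors would raise every log2 ratio against Control by 0.18 for Dicer cKO and by 0.21 for ScxHt, and would leave Dicer cKO against ScxHt as it is, at 0.00.

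**Figure D2:**
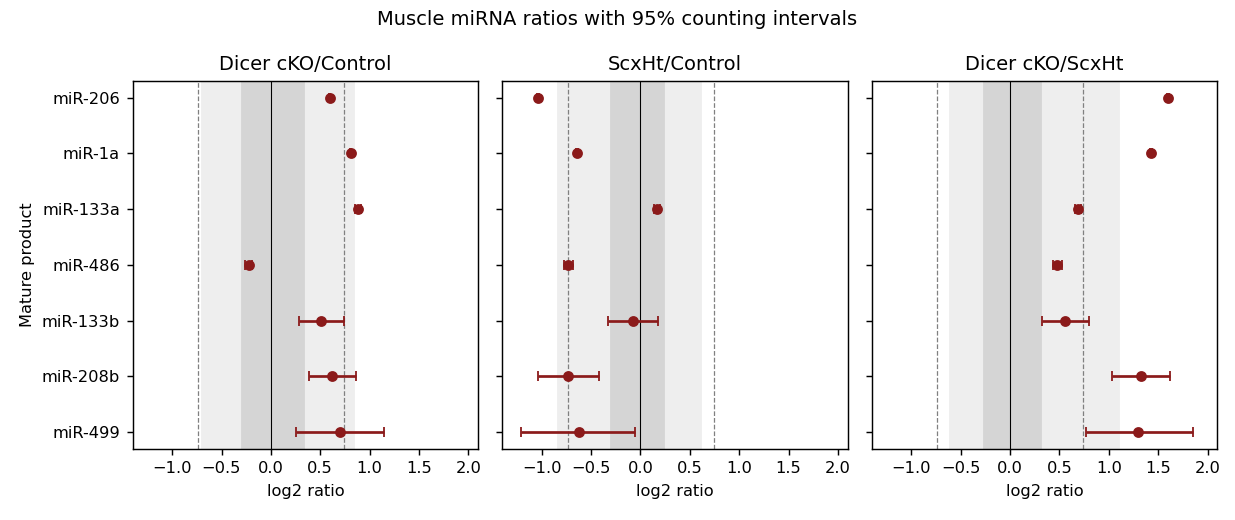
Log2 ratios of the 7 products in the 3 comparisons, with bars for the 95% exact counting interval, dashed lines at the study's upper and lower limits, and grey bands for the middle 50% and 90% of all small RNA features. With size factors all products but miR-486 lie right of 0 for Dicer cKO/Control (miR-486 was at 1.03 with total counts without the member loci), and miR-133a and miR-133b stand apart from the other 5 for ScxHt/Control.

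Partners of a cluster can be compared within a library, where scaling between libraries plays no part. MiR-1a outnumbered miR-133a by a ratio of 9.46 (95% exact counting interval 9.32 to 9.61) in Control and 8.99 (8.88 to 9.1) in Dicer cKO, and by 5.39 (5.3 to 5.47) in ScxHt. Between the libraries, this ratio differed by a factor of 0.95 (95% Woolf interval 0.932 to 0.968) in Dicer cKO and of 0.569 (0.557 to 0.582) in ScxHt, both over Control. The balance of the pair was thus much closer between Control and Dicer cKO, although their interval excludes 1, and lay toward miR-133a in ScxHt.

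The skeletal muscle pair showed the same order on a much wider imbalance. MiR-206 outnumbered miR-133b by 1080 (961.8 to 1216) in Control, 554.5 (488.9 to 631.4) in ScxHt and 1141 (1029 to 1269) in Dicer cKO. The factor was 1.06 (0.905 to 1.23) for Dicer cKO/Control, which holds 1, and 0.514 (0.433 to 0.609) for ScxHt/Control. In both clusters the partner balance of ScxHt lay farthest from that of Control. Reads of miR-133a and miR-133b may be divided wrongly, so the clusters may not be separate observations.

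For ScxHt/Control, the ratios of products with related strands lay closer to those of Control than the ratios of cluster partners did. By point values the order was reversed for Dicer cKO/Control. There the factor was 0.86 (0.854 to 0.867) for miR-206 to miR-1a and 1.29 for miR-133a to miR-133b, beside 0.95 and 1.06 for the cluster partners. The ratio of miR-206 to miR-1a was 1.78 (1.77 to 1.79) in Control, 1.36 (1.35 to 1.37) in ScxHt and 1.53 (1.53 to 1.54) in Dicer cKO, a factor of 0.763 (0.756 to 0.771) for ScxHt/Control. The ratio of miR-133a to miR-133b was 64 (56.9 to 72.1), 75.6 (66.6 to 86.1) and 82.7 (74.5 to 92.1), where the factor over Control was 1.18 (0.995 to 1.4) in ScxHt and 1.29 (1.11 to 1.51) in Dicer cKO. Mature miR-133a and miR-133b are close relatives, so the division of reads between them is uncertain.

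The 2 myosin intron miRNAs kept their balance within counting error. MiR-208b outnumbered miR-499 by 3.51 (2.69 to 4.61) in Control, 3.26 (2.29 to 4.73) in ScxHt and 3.34 (2.67 to 4.2) in Dicer cKO. The factor was 0.952 (0.677 to 1.34) in Dicer cKO and 0.93 (0.604 to 1.43) in ScxHt, both over Control, intervals too wide to exclude a shift as large as that of miR-206 against miR-1a. MiR-486 moved apart from miR-1a between Control and Dicer cKO, where the ratio of miR-1a to miR-486 went from 12.9 (12.7 to 13.1) to 26.4 (25.9 to 27), and it was 13.7 (13.3 to 14) in ScxHt.

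**Figure D3:**
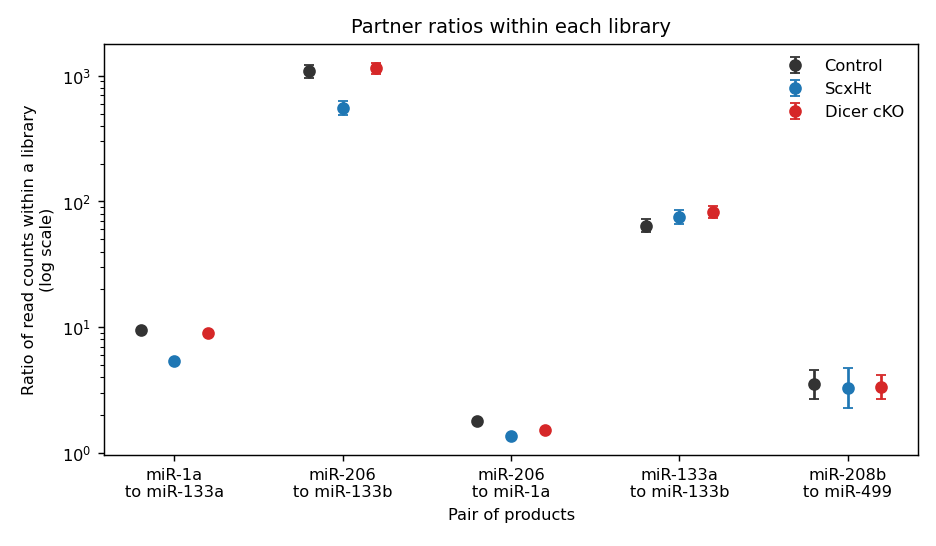
Ratio of read counts of 5 pairs of products within each library (log scale), with bars for the 95% exact counting interval. The ScxHt point lies below the Control and Dicer cKO points for miR-1a to miR-133a (5.39 against 9.46 and 8.99) and for miR-206 to miR-133b (554.5 against 1080 and 1141), and the 3 intervals overlap for miR-208b to miR-499.

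The genes that hold these miRNAs were read in the RNA-seq libraries, where a ratio is relative to the other mRNAs and cannot be set against a miRNA ratio in absolute terms. Myh7, the slow myosin heavy chain and host of Mir208b, had 40759 reads in Control, 14202 in ScxHt and 47563 in Dicer cKO. Its ratios were 1.21 (1.2 to 1.23) in Dicer cKO and 0.334 (0.328 to 0.34) in ScxHt, both over Control, beside 1.54 and 0.603 for miR-208b. Myh7b, the host of Mir499, had 146, 54 and 163 reads and ratios of 1.16 (0.922 to 1.46) and 0.354 (0.254 to 0.487), beside 1.62 and 0.648 for miR-499. Host and miRNA were lowest in ScxHt in both cases.

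Ank1, an ankyrin of the red cell membrane and of muscle, had 968 reads in Control, 713 in ScxHt and 1312 in Dicer cKO. Its ratios were 1.41 (1.29 to 1.53) in Dicer cKO and 0.706 (0.64 to 0.778) in ScxHt, both over Control, while those of miR-486 were 0.855 and 0.603. Host and miRNA therefore stood on opposite sides of 1 for Dicer cKO/Control with size factors. Mib1, a ubiquitin ligase that overlaps Mir1a-2 and Mir133a-1 on the other strand, had ratios of 0.842 (0.803 to 0.882) and 1.05 (1 to 1.09), on the other side of 1 from miR-1a in both comparisons and on the same side as miR-133a for ScxHt/Control.

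The RNA-seq table also lists the hairpins themselves, which longer RNA such as primary transcripts can reach, and these rows held few reads. Mir133a-1 had 17 reads in Control, 0 in ScxHt and 9 in Dicer cKO, Mir133a-2 had 16, 0 and 16, and Mir133b had 19, 2 and 14. A count of 0 allows up to 3 reads, or 0.19 CPM in ScxHt. Mir1a-1 had 9, 15 and 13 reads and Mir1a-2 had 6, 0 and 0. The miR-133 hairpin rows were thus lowest in ScxHt, the library in which mature miR-133a had a ratio to Control of 1.12 and mature miR-133b one of 0.951 with an interval that held 1 (1.1 with total counts). Mir206, Mir208b, Mir499 and Mir486 had at most 4 reads in any library.

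Muscle mRNAs also differed between the libraries, and their part in the miRNA values was not tested. All 20 genes of the fast muscle list passed the RNA-seq minimum baseMean of 50. For Dicer cKO/Control 13 of them were above the upper limit, beside 3.87% of 13504 genes, none was below 0.60, and the median log2 ratio was 0.91, beside -0.03 over all genes. The 3 with most reads in Control were Ttn, the sarcomere spring, at 1.6 (1.6 to 1.61), Neb, the ruler of the thin filament, at 1.63 (1.62 to 1.65), and Acta1, skeletal actin, at 1.59 (1.58 to 1.6). Of the 6 tendon markers, 4 were below 0.60 in the same comparison, beside 4.17% of all genes, and the median log2 ratio was -0.94. The 4 were Scx at 0.365, Fmod at 0.455, Thbs4 at 0.504 and Col1a1 at 0.542. Tnmd at 0.948 and Mkx at 0.913 were past no limit. The knock-in inactivates 1 Scx allele in Dicer cKO and ScxHt and not in Control, so the Scx ratios over Control are partly set by the design. For ScxHt/Control none of the 6 was past a limit, beside 3.05% above and 4.73% below over all genes. The interval lay above 1 for 4 of them, beside 26.4%, and below 1 for 2, beside 23.7%, with a median of 0.15. The 2 below 1 were Scx at 0.623 and Col1a1 at 0.704.

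For ScxHt/Control the fast muscle list split. Of its 20 genes, 7 were below 0.60 and 4 above the upper limit, beside 4.73% and 3.05% of 13563 genes, and the median log2 ratio was -0.29, or -0.18 with total counts. Ttn, at 0.458 (0.456 to 0.46), Neb, at 0.517 (0.512 to 0.522), and Acta1, at 0.573 (0.567 to 0.58), were lower in ScxHt. None of these is limited to fast fibres. The 4 above the upper limit, named after their values were seen, were Myh4, the fastest myosin, at 4.7 (4.59 to 4.81), Pvalb at 3.22 (2.97 to 3.51), Mybpc2 at 2.46 (2.29 to 2.64) and Actn3 at 1.79 (1.68 to 1.9), all typical of the fastest fibres. Against ScxHt, 17 of the 20 were above the upper limit in Dicer cKO, beside 7.67% of 13555 genes, and none was below 0.60, beside 5.68%. The interval lay above 1 for all 20 and for 24.8% of all genes, and below 1 for none and for 30.5%.

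The slow muscle list held 13 genes of slow and cardiac-type muscle, among them Myh6, so its members are not limited to slow fibres. All 13 were below 0.60 for ScxHt/Control, beside 4.73% of all genes, with a median log2 ratio of -1.43 beside 0.02 over all genes. For Dicer cKO/Control none was past either limit, the interval lay above 1 for 10, beside 21.5% of all genes, and held 1 for 3, and the median was 0.28. The 3 with most reads in Control were Myh7, Mybpc1, a slow myosin-binding protein, with ratios of 1.47 (1.45 to 1.5) in Dicer cKO and 0.446 (0.435 to 0.457) in ScxHt, both over Control, and Atp2a2, the slow calcium pump, with 0.986 (0.962 to 1.01) and 0.534 (0.519 to 0.549). For Dicer cKO/ScxHt all 13 were above the upper limit, beside 7.67% of all genes, and the median was 1.82.

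Of 11 known regulators of the muscle miRNAs, 8 passed the minimum. For Dicer cKO/Control none of the 8 was past a limit, beside 3.87% above and 4.17% below over all genes, and the median log2 ratio was 0.23. For Dicer cKO/ScxHt 3 of the 8 were above the upper limit, beside 7.67% of all genes, namely Myf6 at 2.47 (2.05 to 2.99), Mef2c at 1.91 (1.84 to 1.99) and Tead1 at 1.68 (1.6 to 1.76), and the median was 0.52. Myod1, the myogenic master factor, had 8 reads in Control, 11 in ScxHt and 32 in Dicer cKO, Myog had 25, 14 and 29, and Myf5 had 1, 0 and 7, all under the minimum. Myf6, the factor of mature fibres, had ratios of 1.32 (1.13 to 1.55) in Dicer cKO and 0.545 (0.446 to 0.663) in ScxHt, both over Control, and was the 1 regulator of 8 below 0.60 in ScxHt/Control, beside 4.73% of all genes. Mef2c, which drives miR-1 and miR-133 transcription, had 1.34 (1.29 to 1.38) and 0.711 (0.683 to 0.739).

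Other regulators that passed are expressed more broadly. Mef2a had ratios of 0.75 (0.719 to 0.782) in Dicer cKO and 1.03 (0.994 to 1.07) in ScxHt, both over Control, and Mef2d 0.825 (0.766 to 0.888) and 0.688 (0.638 to 0.743). Srf, the serum response factor, had 1.18 (1.01 to 1.38) and 0.807 (0.681 to 0.956). Six4 and Tead1 had Dicer cKO/Control ratios of 1.2 and 1.17 and ScxHt/Control ratios of 0.95 and 0.707.

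Of 23 mRNAs known as targets of these miRNAs, 21 passed the minimum. For Dicer cKO/Control, where 6 of the 7 products were higher by their intervals, 6 targets had an interval above 1, 11 had one below 1 and 4 held 1. Over all genes, the interval lay above 1 for 21.5% and below 1 for 28.4%. The median log2 ratio of the targets was -0.07, beside -0.03, and 1 of the 21 was below 0.60, beside 4.17% of all genes. The lowest 4 were Hand2, a heart and limb transcription factor targeted by miR-1, at 0.493 (0.362 to 0.666), Gja1, the gap junction protein connexin 43 targeted by miR-1 and miR-206, at 0.681 (0.663 to 0.7), Foxo1, targeted by miR-486, at 0.687 (0.646 to 0.73), and Timp3, targeted by miR-206, at 0.693 (0.679 to 0.707).

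The 4 highest targets were Mstn, the muscle growth inhibitor myostatin, at 1.62 (1.12 to 2.36), Pola1, a DNA polymerase subunit, at 1.33 (1.14 to 1.54), Prdm16 at 1.29 (1.05 to 1.58) and Srf at 1.18 (1.01 to 1.38). For Dicer cKO/ScxHt, 3 of the 21 targets were below 0.60, beside 5.68% of all genes, namely Hand2 at 0.302 (0.226 to 0.398), Igf1 at 0.461 (0.446 to 0.475) and Gja1 at 0.592 (0.576 to 0.607). For ScxHt/Control, where miR-206 and miR-1a were lower, 7 targets had an interval above 1, 6 had one below 1 and 8 held 1, beside 26.4% above and 23.7% below 1 over all genes, and the median was -0.03, beside 0.02 over all genes. Hand2 and Igf1 were the highest there, at 1.66 (1.34 to 2.06) and 1.6 (1.56 to 1.65), with Igf1 named after its value was seen.

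**Figure D4:**
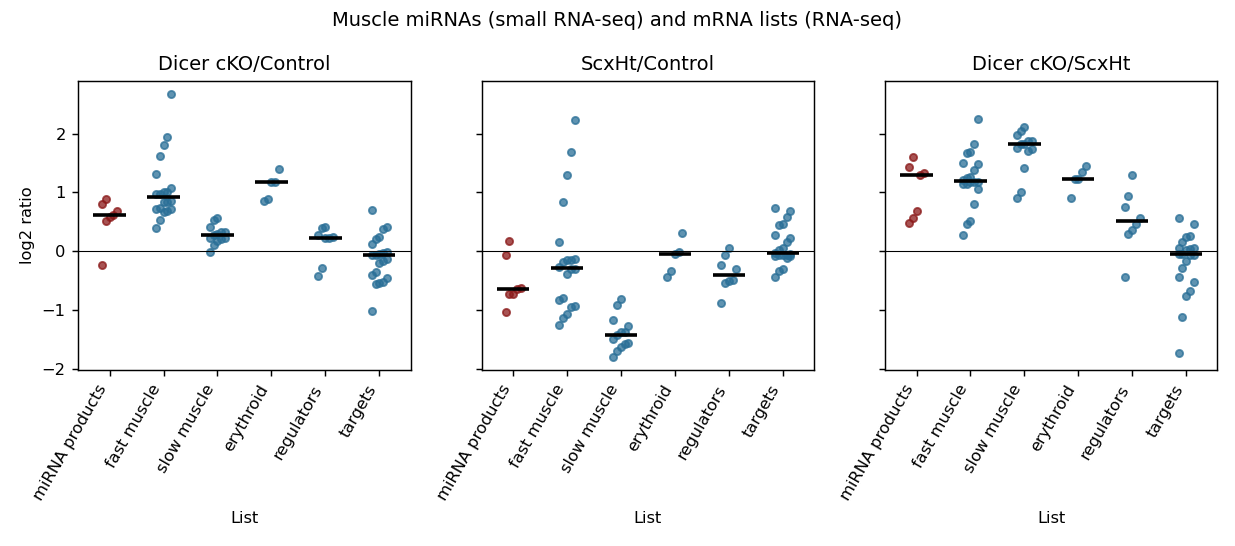
Log2 ratios in the 3 comparisons of the 7 miRNA products (red, small RNA-seq) and of the members of 5 mRNA lists that passed the minimum (blue, RNA-seq), with a bar at each median. The slow muscle genes lie low for ScxHt/Control (median -1.43) and high for Dicer cKO/ScxHt (median 1.82), and the medians of the target mRNAs are -0.07, -0.03 and -0.04, with single targets such as Hand2 away from 0.

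Red blood cells are the other known source of miR-486. Mir451a, which is made almost only in red cell precursors, had 559 reads in Control, 394 in ScxHt and 586 in Dicer cKO, with ratios of 1.2 (1.07 to 1.35) in Dicer cKO and 0.794 (0.696 to 0.905) in ScxHt, both over Control. Its neighbour Mir144 had 187, 164 and 223 reads, with ratios of 1.37 (lower bound 1.12) and 0.988 (0.796 to 1.23). Of 9 erythroid genes, 8 were in the table and 5 passed the minimum, and all 5 were above the upper limit for Dicer cKO/Control, beside 3.87% of all genes. The list held 190.1 CPM in Control, 194.6 in ScxHt and 461.6 in Dicer cKO, with Epb42 at 0 reads in ScxHt and no other listed member at 0.

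Hba-a1 and Hba-a2, alpha globin genes so alike that reads may be split between them, had Dicer cKO/Control ratios of 2.63 (2.47 to 2.8) and 2.26 (2.09 to 2.44), and the beta globin gene Hbb-bs had 1.81 (1.6 to 2.07). Their ScxHt/Control ratios were 0.975, 0.989 and 0.793. For Dicer cKO/Control, 13 of 20 genes of the fast muscle list were thus above the upper limit, beside 3.87% of all genes. The count was 0 of 13 for slow muscle genes and 5 of 5 for erythroid genes. MiR-486 was at 0.855 with size factors and 1.03 with total counts without the member loci. For ScxHt/Control, where miR-486 was at 0.603, all 13 slow muscle genes were below 0.60 and no erythroid gene was past a limit. Of the 20 genes of the fast muscle list, 7 were below 0.60 and 4 above the upper limit. Over all genes, 4.73% were below and 3.05% above. Of the 5 erythroid genes, the interval lay below 1 for 2, Hbb-bs and Hbb-bt at 0.742 (0.613 to 0.898), held 1 for 2, and lay above 1 for Alas2 at 1.24 (1.02 to 1.51), with Hbb-bt and Alas2 named after their values were seen. It lay below 1 for 23.7% of all genes and above 1 for 26.4%. For Dicer cKO/ScxHt, miR-486 was at 1.39. There, all 13 slow muscle genes, 17 of 20 of the fast muscle list and all 5 erythroid genes were above the upper limit, beside 7.67% of all genes. The part of either cell type in the miR-486 values was not tested.

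Outside the family, the features with the most similar ratios were sought among 225 features with a mean normalized count above 100, by the larger of the differences in log2 ratio for Dicer cKO/Control and ScxHt/Control. Over 3 libraries such likeness is only a description. For miR-206 the nearest were Mir378c, 0.28 away, with ratios of 1.24 (1.11 to 1.38) and 0.486 (0.421 to 0.56), and Mir378a, 0.34 away, with 1.19 (1.16 to 1.23) and 0.584 (0.564 to 0.606). Mir378a lies in an intron of the metabolic coactivator gene Ppargc1b and is abundant in muscle. The next were n-TSaga9, Gm44456 and n-TStga1, 0.54 to 0.55 away, with nearly equal counts of 2667, 2641 and 2633 in Control.

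For miR-1a the nearest outside features were Mir381, 0.29 away with ratio intervals of 1.6 to 1.74 and 0.743 to 0.823, Mir380 at 0.39, Mir128-1 at 0.43, n-TStga1 at 0.49 and Mir182 at 0.50. Within the family, miR-499 was 0.11, miR-208b 0.18 and miR-206 0.39 away from miR-1a by the same measure. MiR-133b at 0.57, miR-133a at 0.81 and miR-486 at 1.03 were farther from miR-1a than any of these 5 outside features. Those 5 were picked as the nearest of 225 candidates, so their smaller distances follow in part from that choice.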

How the data were processed

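Total RNA of Achilles tendon was sequenced as RNA-seq and small RNA-seq, 1 library of each per genotype. Adaptors were removed and reads mapped to GRCm38 (mm10) by the authors with TopHat and Bowtie2, and the deposited tables hold raw read counts per gene from HTSeq, one for each assay. Versions, annotation release and strand setting are not given in the sources used here. The authors also deposited RPKM values, which were used only for the length-scaled order of levels. The authors' own analysis used DESeq2 with shrinkage.

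Here counts of the 2 libraries compared were divided by DESeq2 1.42.0 median-of-ratios size factors (R 4.3.3), and their ratios taken with scipy 1.17.1, pandas 2.3.3 and numpy 2.4.6 under Python 3.11.15. Plots were made with matplotlib 3.10.9. A feature needed a baseMean above 15 (small RNA-seq) or 50 (RNA-seq), as the study sets them. A log2 ratio above 0.74 or a ratio below 0.60 was called higher or lower. These are the limits of the study, applied here to ratios without shrinkage. Intervals are 95% exact Clopper-Pearson intervals from the share of reads in 1 of the 2 libraries, and Woolf intervals for ratios of ratios. They hold neither error of the size factors nor the spread between mice. The procedure was tested on simulated counts. Where a large share of small RNA features was changed, the intervals held the true ratio less often than their level states. The number of changed features was then lowered and the pass marks loosened, so the final test does not cover that case. With 1 library per group no p-value was computed.

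RNA-seq counts added up to 14959399 to 16244232 per library. Named were all loci, their hosts, Mir451a and Mir144, the regulators (1 is not reported here), the 3 most read genes of the fast, slow and erythroid lists, the 4 highest and 4 lowest targets, and the 5 nearest features to miR-1a and to miR-206. Members and lists were chosen with earlier results of these data known. Alternatives were edgeR 4.0.16 TMM, total counts with and without the members, size factors over 3 libraries, a pseudocount of 1, the other or summed loci, other minimum values and limits of 2 and 0.5.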

Additional observations from a re-analysis of the deposited data

How the results depend on the processing

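For Dicer cKO/Control, the number of products above the limit went from 2 of 7 to 5 with total counts and to 6 with total counts without the member loci, where the median log2 ratio went from 0.62 to 0.90, and to 0 with a limit of 2. With total counts the fast muscle median became 0.98 (from 0.91) in Dicer cKO over Control, -0.18 (from -0.29) in ScxHt over Control and 1.13 (from 1.20) between Dicer cKO and ScxHt. Total-count scaling adds the same shift to every feature of a comparison, so these moves follow from its construction. The other 113 checks of medians, counts and partner ratios stayed within their interval or within 1.5 times the count. Many of them could hardly move, because the other and the summed loci hold the same reads or are the same locus. Partner ratios were checked only with the other locus. Of the checks of single product ratios and of shares of all features, 36 moved and 156 did not. Ratios of 2 products changed side of 1, miR-486 for Dicer cKO/Control (1.03 with total counts without the member loci) and miR-133b for ScxHt/Control (1.1 and 1.08 with the total-count scalings). Across all alternatives the Dicer cKO/Control ratio ranged from 1.75 to 2.11 for miR-1a, 1.84 to 2.23 for miR-133a and 1.51 to 1.82 for miR-206. No replicate could be left out. Depth limited miR-499, which a minimum baseMean of 100 removed, and the hairpin rows of RNA-seq. No paired analysis was possible because each genotype had 1 library per assay.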
